A study of Drosophila melanogaster with 2 samples.

Results

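Ecdysone-linked nuclear receptor genes are a set of 8 *Drosophila melanogaster* genes: *EcR*, *usp*, *Hr38*, *Eip75B*, *Eip78C*, *Hr4*, *ftz-f1* and *Hr39*. They were taken by name from the annotation of the dm6 genome build, which holds 13945 protein-coding genes on the main arms, and all 8 were found. The set was chosen with earlier results of these data known. The data are ChIP-seq peak lists for CG31388, a zinc finger protein of the ZAD family, from whole embryos of mixed sex collected 0 to 16 h after laying. The embryos came from a transgenic line that makes CG31388 fused at its C-terminal end to GFP, and an antibody against GFP pulled down the sonicated chromatin. The study has 1 group with 2 libraries, biological replicates 2 and 4, which cite different protocol documents. Whole embryos mix many cell types, so protein in more nuclei and more protein per nucleus cannot be told apart, and the antibody sees only the tagged copy. No wild-type or mutant group was analysed here, the read depth is unknown, and every value below is a description with no test.

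Ecdysone is the steroid hormone that times embryonic development, moulting and metamorphosis in insects. It binds a dimer of the ecdysone receptor EcR and its partner Usp, and this dimer switches on early genes, several of which encode further nuclear receptors. Those receptors (E75, E78, DHR4, FTZ-F1) then act on one another and on later genes, so that a pulse of hormone is passed on as an ordered cascade. In the embryo a pulse of ecdysone accompanies germ band retraction and dorsal closure, and maternal FTZ-F1 acts earlier still, with the segmentation factor Ftz.

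The tagged protein had reproducible peaks at 3 of the 8 genes: 5 at *Eip75B*, 5 at *Hr4* and 1 at *usp*. Of all protein-coding genes 27.8% had one by the same rule, which is given next. Here a reproducible peak is a region that the authors kept by the irreproducible discovery rate (IDR) over both libraries. There are 1872 such peaks, and they are the strongest by signal of the 28750 candidate regions of their pooled list. Being in the reproducible list therefore does not show that a region ranked alike in both libraries. Nor does being outside it show that the libraries differed on a region. That pooled list also takes in background, so a candidate outside the reproducible list need not be a place where the protein binds. A region was given to a gene when its summit lay in the gene body, within 5 kb outside it or within 500 bp of any annotated transcription start site (TSS). *EcR*, *Hr38*, *Eip78C*, *ftz-f1* and *Hr39* had candidates but no reproducible peak. Of the 11 peaks, 8 lay in introns and 3 at promoters, 1 of which was the promoter of a neighbouring gene. The shares of all 1872 peaks in these classes are not given here, so this split is not shown to be particular to these genes.

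DNA at 7 of the 11 peaks is shown because it differs from peak to peak in the way described further on. It is read from the plus strand of the dm6 assembly and centred on the summit, except at *usp* and at the RC start of *Eip75B*, where annotated UTR bases at the summit are left out. Capitals mark any of the 10 A/T words of 7 bases that were most in excess at all peaks of the series, or, in the *Eip75B* intron nearest transcript RG and in the second *Hr4* sequence, a 12-base word that both hold on opposite strands.
*usp* promoter, chrX:2041387-2041460: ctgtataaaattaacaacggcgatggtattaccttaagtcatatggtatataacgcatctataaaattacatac
*Eip75B* at the start of transcript RC, chr3L:17999822-17999922: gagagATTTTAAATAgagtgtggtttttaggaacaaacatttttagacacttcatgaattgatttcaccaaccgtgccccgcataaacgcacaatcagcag
*Eip75B* intron, chr3L:18009087-18009187: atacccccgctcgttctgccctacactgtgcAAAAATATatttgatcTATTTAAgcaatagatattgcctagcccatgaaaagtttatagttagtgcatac
*Eip75B* intron nearest transcript RG, chr3L:18019770-18019870: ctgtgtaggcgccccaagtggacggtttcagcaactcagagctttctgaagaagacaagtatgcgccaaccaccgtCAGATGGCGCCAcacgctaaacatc
*Hr4* intron, strongest peak, chrX:1947699-1947799: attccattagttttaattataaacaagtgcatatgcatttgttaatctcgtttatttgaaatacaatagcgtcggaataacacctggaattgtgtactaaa
*Hr4* same intron, chrX:1953053-1953153: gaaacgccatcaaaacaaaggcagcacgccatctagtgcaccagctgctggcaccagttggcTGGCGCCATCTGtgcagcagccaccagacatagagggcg
*Hr4* next intron, chrX:1963879-1963979: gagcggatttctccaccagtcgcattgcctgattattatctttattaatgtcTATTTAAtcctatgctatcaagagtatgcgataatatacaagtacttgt

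*usp* encodes Ultraspiracle, the fly relative of vertebrate RXR and the obligate partner of EcR. It is a compact gene of 3.51 kb on the minus strand of X (chrX:2038798-2042311, FBgn0003964) and lies inside the span of *Actn*, the alpha-actinin gene. Its single reproducible peak (chrX:2041270-2041665) had a pooled signal of 64.7, where signal is the authors' deposited enrichment of a region, whose scale is not stated in their files. The summit lay 156 bp upstream of the TSS of transcript *usp*-RA and 843 bp downstream of that of *usp*-RB, and the TSS of CG4313 was also within 500 bp. In the list of replicate 2 this region had a signal of 18.9 and ranked 2156 of 30000, and in that of replicate 4 it had 41.9 and ranked 1369. The peak was therefore among the 1872 strongest regions of replicate 4 and outside them in replicate 2. Signals of the 2 lists are not on a common scale, so only ranks are set side by side. The other 5 candidates of *usp* had signals between 18.0 and 24.5, the strongest in an *Actn* intron at chrX:2037800-2038195 and ranked 14213 in replicate 2 and 11705 in replicate 4.

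*Eip75B* encodes E75, a heme-binding receptor that is among the earliest genes induced by ecdysone. It is the longest of the 8 genes, at 113.7 kb on the minus strand (chr3L:17950953-18064696, FBgn0000568), with 7 annotated TSS positions, 1 for each transcript. Its 5 peaks all lay in the middle of the gene, over 20024 bp that make up 17.6% of the body. The strongest (chr3L:17999598-17999993, signal 93.5) had its summit 25 bp downstream of the TSS of transcript RC, at rank 844 in replicate 2 with a signal of 30.6 and rank 485 in replicate 4 with 68.4. Moving from there towards the 5′ end of the gene, the peak at chr3L:18003597-18003992 had a pooled signal of 54.2, a signal of 15.9 (rank 3065) in replicate 2 and one of 37.4 (rank 1713) in replicate 4. It stood barely above 53.8, the weakest reproducible peak of the series.

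The next *Eip75B* peak, at chr3L:18004998-18005393, had a pooled signal of 73.1, with 35.0 (rank 647) in replicate 2 and 40.2 (rank 1489) in replicate 4. Its replicate 2 region also held the summit of the overlapping candidate at chr3L:18005198-18005593. The peak at chr3L:18008939-18009334 had 61.9 in the pooled list, 26.2 (rank 1171) in replicate 2 and 34.9 (rank 1935) in replicate 4. The one farthest upstream, at chr3L:18019622-18020017, had 60.7, with 27.0 (rank 1105) in replicate 2 and 35.1 (rank 1922) in replicate 4, and lay 6212 bp downstream of the RG start. These 3 peaks ranked higher in replicate 2, whereas the peak at RC and the weakest one ranked higher in replicate 4. Neighbouring summits were 3999, 1401, 3941 and 10683 bp apart. All 5 lay inside 1 intron of 65.2 kb, which is intron 1 of transcript RB and intron 3 of RE and RF, and inside intron 1 of RG, of 32.3 kb. Only the RC start had a peak among the 7 starts of *Eip75B*. Candidates that were not reproducible stood at the RD, RA, RG and RF starts with signals between 22.5 and 24.2, and none at those of RB and RE.

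*Hr4* encodes DHR4, a receptor of the delayed early response that in larvae limits ecdysone production in the prothoracic gland. The gene covers 66.0 kb on the plus strand of X (chrX:1941940-2007956, FBgn0264562), 30.8 kb from *usp*. Its 4 peaks in the body lay over 16.2 kb near the 5′ end, or 24.5% of the body, and included the 3 strongest of all 8 genes. The peak at chrX:1947551-1947946 had a pooled signal of 131.5 and rank 291, with 57.3 (rank 200) in replicate 2 and 73.2 (rank 423) in replicate 4. That at chrX:1963731-1964126 had 130.1 and rank 301, with 52.1 (rank 268) in replicate 2 and 76.7 (rank 372) in replicate 4. These are the highest ranks any of the 8 genes reached, in both libraries.

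The other peaks of *Hr4* in the body stood at chrX:1951733-1952128 and chrX:1952905-1953300. The first of them had a signal of 105.4, with 37.9 (rank 547) in replicate 2 and 61.7 (rank 602) in replicate 4. The second had 73.4, with 26.1 (rank 1185) in replicate 2 and 49.1 (rank 1011) in replicate 4. From the main TSS, which 7 of 9 transcripts use, the 4 summits lay 5809, 9991, 11163 and 21989 bp downstream. The first 3 of them are in 1 intron of 10.4 kb, and the last is in the following intron, of 14.4 kb. The non-coding gene CR46447 starts inside *Hr4*, and for 3 of the 4 summits its TSS was the nearest, at 1377 to 9449 bp. The remaining peak (chrX:1940047-1940442, signal 57.7) lay outside the body, 1695 bp upstream of the *Hr4* TSS but 62 bp from that of CG3587, with CG3857 also within 500 bp. It ranked 5573 in replicate 2 (signal 12.5) and 1305 in replicate 4 (signal 42.8), the widest gap in rank among the 11 peaks. The same replicate 2 region also held the summit of the overlapping candidate at chrX:1940246-1940641, so that rank is not specific to the peak. Neither *Hr4* TSS had a peak, and a candidate of signal 16.6 was the only one at either.

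**Figure D1:**
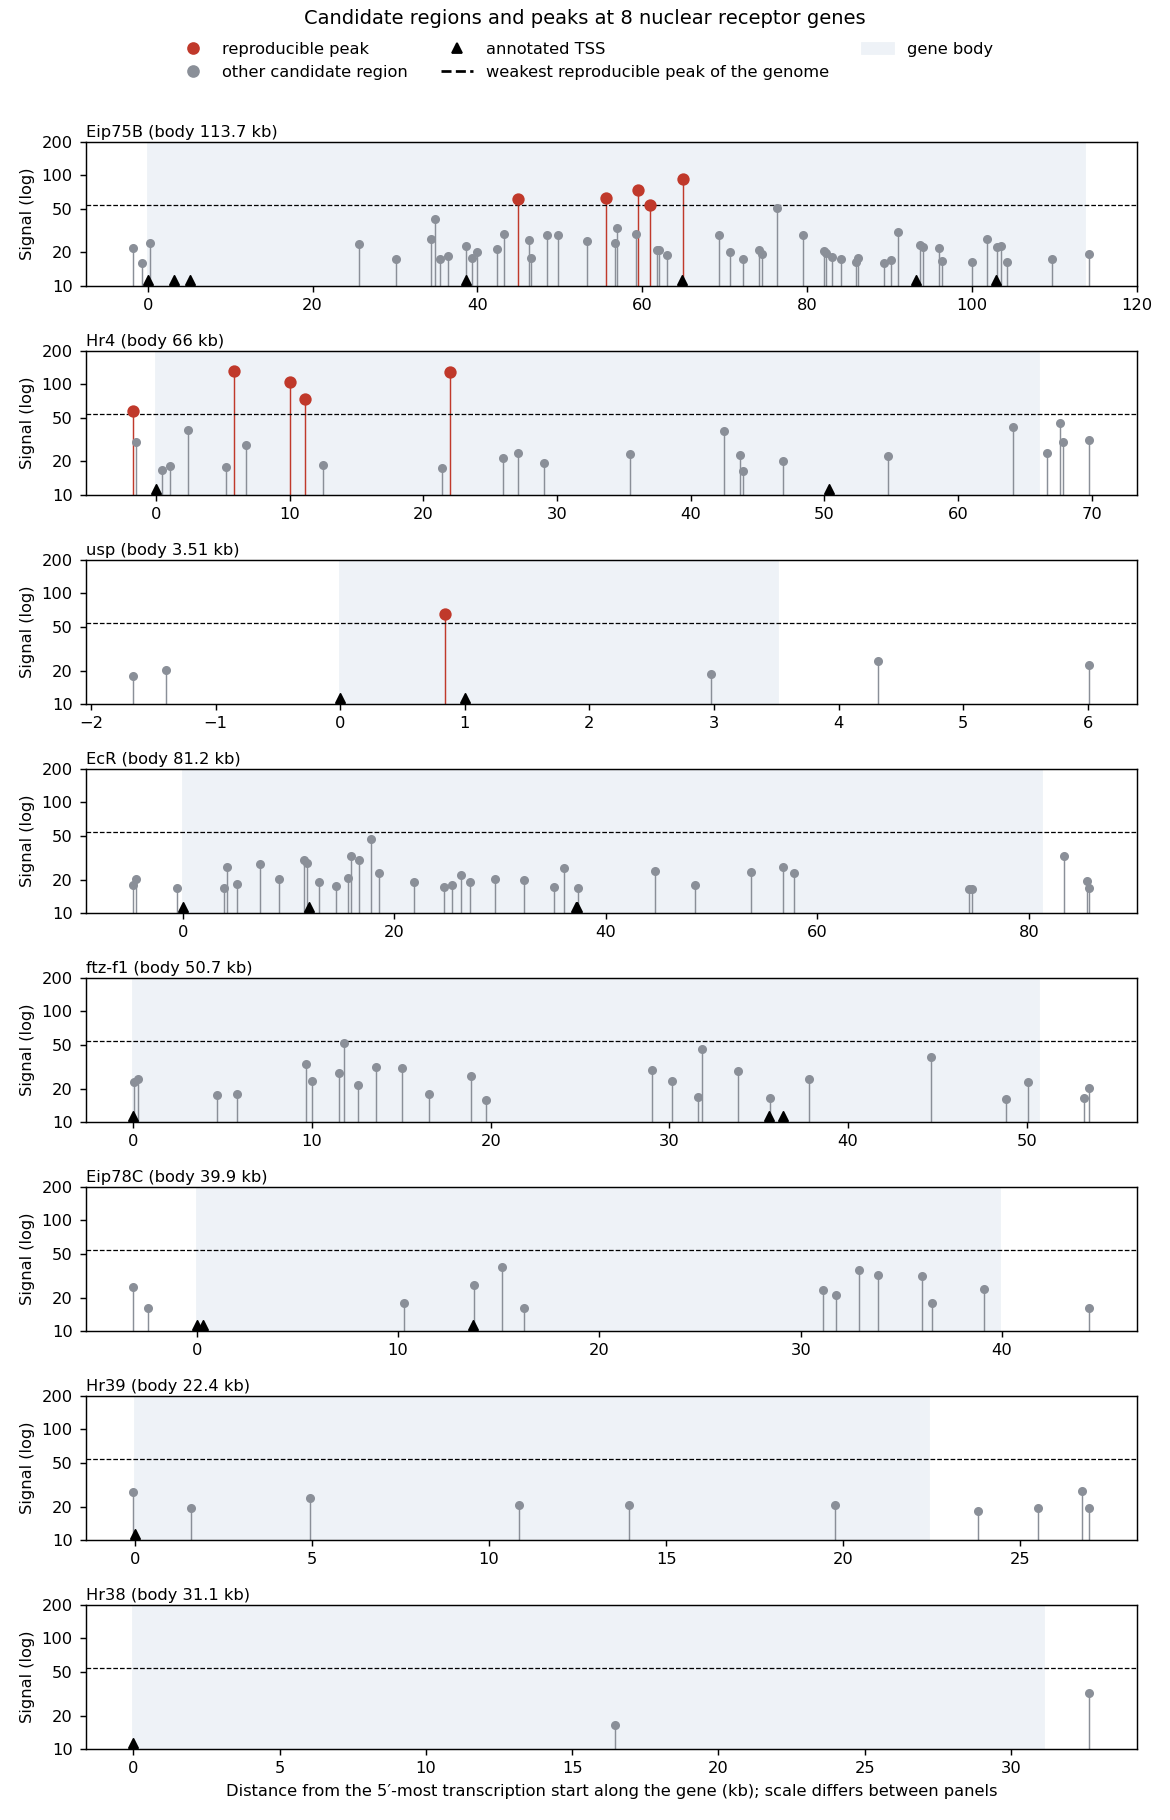
Candidate regions (grey) and reproducible peaks (red) at each of the 8 genes, with the pooled signal on a log axis against the distance of the summit from the 5′-most annotated start, in kb along the direction of transcription. Triangles are annotated starts, shading is the gene body and the dashed line is the weakest reproducible peak of the series (53.8). Peaks sit in the middle of *Eip75B*, in the 5′ part of *Hr4* and between the starts of *usp*. All candidates of the other 5 genes stay under the line, as every region outside the reproducible list must, since that list holds the strongest regions by signal.

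*ftz-f1* encodes an orphan receptor that gives tissues the competence to respond to the next ecdysone pulse and, as its maternal isoform, works with Ftz in segmentation. It covers 50.7 kb on the minus strand of 3L (chr3L:18750607-18801309, FBgn0001078) and came closest to the reproducible list without entering it. Its strongest candidate, an intronic region at chr3L:18789315-18789710, had a pooled signal of 51.7 and rank 1983. The 2 libraries differed on it: it ranked 1452 in replicate 4 with a signal of 40.8, and 21274 in replicate 2 with 7.34. A second intronic region of *ftz-f1*, at chr3L:18769274-18769669, had 45.8 (rank 2439) and stood at similar ranks, 2925 in replicate 2 and 2732 in replicate 4. Thus one region was strong in 1 library, and the other was moderate in both. Of its 3 starts, 2 had candidates, the stronger at 24.5. *ftz-f1* and *Eip75B* had almost the same density of candidates, 4.73 and 4.75 per 10 kb of body, yet *ftz-f1* had no peak and *Eip75B* had 5.

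*Eip75B* also had a candidate just outside the list, at chr3L:17988122-17988517, with a signal of 50.9 and ranks of 2420 in replicate 2 and 2240 in replicate 4. Its nearest gene start was that of the non-coding gene CR45921, 6479 bp away. For *Hr4*, the strongest candidate that was not reproducible (chrX:2009402-2009797, signal 44.6) was 236 bp from the TSS of the neighbour *PIG-K*, an enzyme gene of GPI anchor attachment. It ranked 2536 in replicate 2 and 4599 in replicate 4.

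*Eip78C*, whose product E78 is an early-response receptor related to E75, had 14 candidates, 11 of them in its body of 39.9 kb (chr3L:21226609-21266503, FBgn0004865) and 3 in the flanks. The strongest was intronic, at chr3L:21241582-21241977, with a signal of 37.5; it ranked 2053 in replicate 4 and lay in no region of replicate 2. Only the RB start had a candidate, at 25.8. *Hr39*, a relative of *ftz-f1* known for its part in female reproductive glands, had 10 candidates and 5 in its body of 22.4 kb (chr2L:21237250-21259675, FBgn0261239). Its single TSS had a candidate of signal 27.3 and rank 7127, with ranks of 11046 in replicate 2 and 13155 in replicate 4. A slightly stronger one, of 27.6, lay in the 3′ flank at chr2L:21263803-21264198, at rank 7531 in replicate 2 and in no region of replicate 4. *Hr38* encodes the fly member of the NR4A group and can pair with Usp in place of EcR. It had the fewest candidates, 1 in its 31.1 kb body and 1 in the flank (chr2L:20683462-20714588, FBgn0014859), or 0.321 per 10 kb of body. The body candidate had a signal of 16.6, and the other, of 32.2, lay 62 bp from the TSS of the neighbour *Cen*. *Hr38* was the only one of the 8 genes with no candidate within 500 bp of a TSS of its own.

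*EcR* encodes the ecdysone-binding receptor itself and occupies 81.2 kb on the minus strand of arm 2R (2R:6087873-6169087, FBgn0000546). It had 37 candidates, the most after the 57 of *Eip75B*, and none was reproducible. The strongest lay in an intron at 2R:6151071-6151466, with a signal of 47.0 and pooled rank 2320, at rank 6637 in replicate 2 and 1780 in replicate 4. The TSS of transcripts RD and RE had a candidate of 30.2, those of RG, RB and RC shared one of 16.9, and that of RA had none. Transfer RNA genes sit in the introns of *EcR*, and for 16 of the 37 candidates the nearest TSS was that of a tRNA gene, within 500 bp for 9. Of its candidates, 10 lay in regions of both replicates, 16 in those of replicate 4 only, 5 in those of replicate 2 only and 6 in neither. The nearest reproducible peak was 51674 to 63632 bp from the 4 starts of *EcR*, against 66385 to 102738 bp for those of *ftz-f1*.

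**Figure D2:**
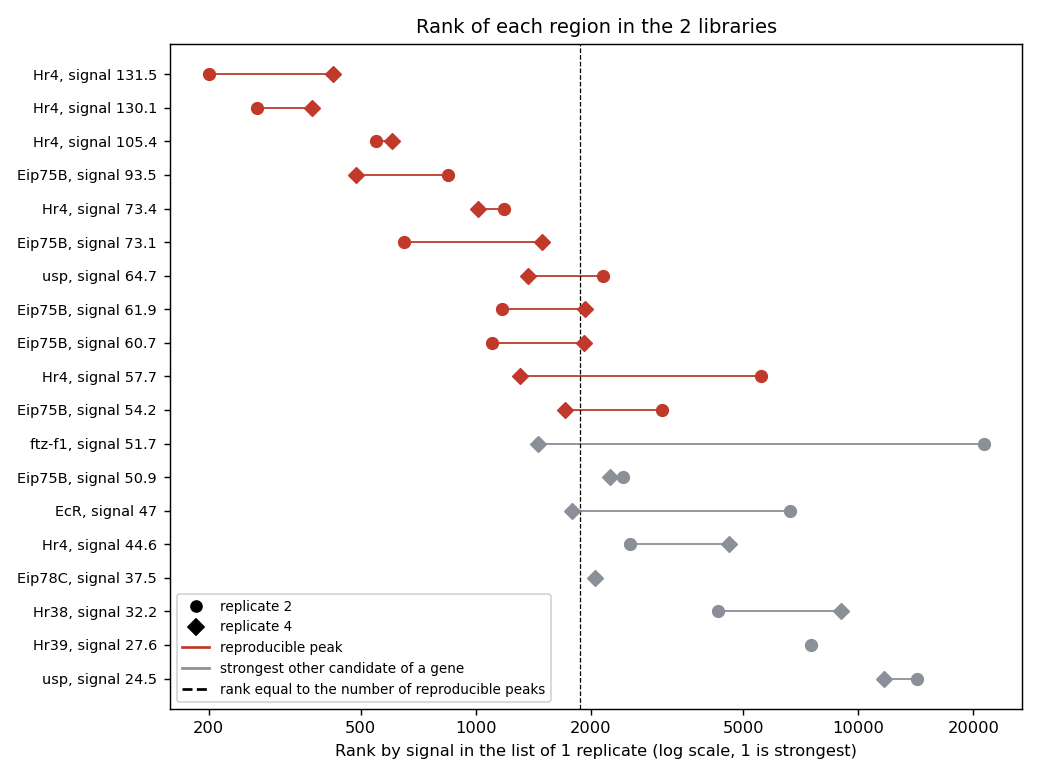
Rank of the region in the list of replicate 2 (circles) and of replicate 4 (diamonds), on a log axis, for the 11 reproducible peaks (red) and the strongest other candidate of each gene (grey; *Eip78C* and *Hr39* have 1 mark because the summit lies in a region of only 1 library). The dashed line is at rank 1872; 6 peaks have both marks left of it, and the top *ftz-f1* candidate spans ranks 1452 to 21274.

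The 2 libraries supported the peaks of the receptor genes to different degrees. All 11 summits lay in regions of both replicates. This says little by itself, because each replicate list holds 30000 regions and comes from the same libraries as the peaks. The share of all peaks for this measure is not given here. By a stricter measure, 6 of the 11 (54.5%) were among the 1872 strongest regions of both replicates, against 68.0% of all reproducible peaks (1273). Those 6 were all in *Hr4* (4) and *Eip75B* (2). Replicate 2 had 8 of the 11 among its strongest 1872 regions and replicate 4 had 9. Of the 168 other candidates of the 8 genes, 26.8% were in both replicates, 13.7% in replicate 2 only, 48.8% in replicate 4 only and 10.7% in neither. The shares over all 26878 candidates that were not reproducible were 29.2%, 19.2%, 42.8% and 8.81% in the same order. A library difference from protocol or depth was not tested.

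At promoters, 2 of 8 receptor genes (25.0%) had a reproducible peak within 500 bp of a TSS, against 10.1% of protein-coding genes (1411 of 13945). Counted by start, 2 of their 23 TSS positions had a peak, against 8.94% of the 19607 positions of all coding genes, so the share per start was close to that of the genome. Candidates of any kind stood at a TSS of 7 of the 8 genes, against 46.5% of coding genes. A gene with more starts has more places for one, so this contrast is not corrected for number of starts. By start, candidates stood at 14 of the 23, and the share over all starts was not computed. With body and flanks counted, 3 of 8 genes (37.5%) had a reproducible peak, against 27.8% of coding genes. Long genes offer more room: 2 of the 7 receptor genes of at least 10 kb had a peak, against 39.8% of the 1977 coding genes of that length, and 2 of the 4 of at least 50 kb, against 44.0% of 307. The number of receptor genes with a peak was thus near the background for their length. It was 2 of the 8 without replicate 4, where *usp* had none, and 5 without replicate 2, where *EcR* and *ftz-f1* had 1 each.

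*Eip75B* and *Hr4* held 5 peaks each, a count that few genes reached. Of all coding genes, 15 had 5 or more assigned peaks, *Eip75B* and *Hr4* included, and the highest count was 11. Among genes of at least 50 kb, 2 of the 4 receptor genes had 5 or more, against 2.61% (8 of 307, these 2 included). Because the set was chosen with earlier results known, this is not an independent contrast. These counts depended on the settings: *Hr4* had 1 peak when each region was given only to the gene with the nearest TSS, and 3 among the stronger 936 peaks. *Eip75B* had 3 without replicate 2 and 1 among the stronger 936 peaks. Counts among the stronger 936 peaks are lower by construction, since that list is shorter. In the body alone, 9 coding genes had as many as the 5 of *Eip75B*, itself included, and 20 had as many as the 4 of *Hr4*. Per 10 kb of body, *usp* had 2.85 reproducible peaks, *Hr4* 0.606 and *Eip75B* 0.44. Over the 408.6 kb of the 8 bodies together there were 0.245 per 10 kb, against 0.112 in all coding genes, 0.108 in those of at least 10 kb and 0.0673 in those of at least 50 kb. Candidates were also denser, at 3.65 per 10 kb, against 2.19, 2.13 and 1.71 in those groups of genes. Candidate density can include background regions, so it is not a measure of binding. The share of candidates that were reproducible was 6.15% (11 of 179), against 6.51% of all candidates. Summed over the 8 bodies there were thus more of both kinds of region per 10 kb, with a similar share of peaks. The sum for peaks rests mainly on *Eip75B* and *Hr4*, since 5 of the 8 genes had 0. For candidates only *Hr38*, at 0.321 per 10 kb, was below the 2.19 of all coding genes. Adjacent candidates of the 8 genes overlapped each other in 25 cases, so the regions are not all separate places.

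**Figure D3:**
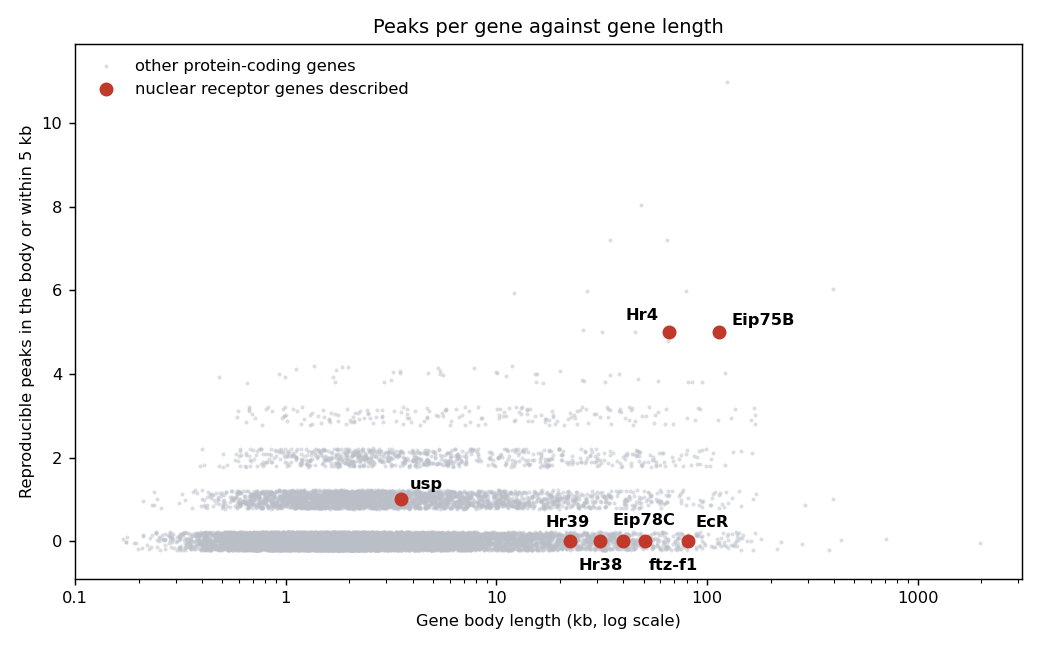
Reproducible peaks in the body or within 5 kb (vertical axis) against gene body length on a log axis, in kb, with the 8 receptor genes in red and all other protein-coding genes in grey, spread slightly in height so that points can be seen. *Hr4* and *Eip75B* have 5 each, *usp* has 1, and the other 5 lie at 0.

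The 11 peaks covered much of the range of the reproducible list, from rank 291 to rank 1847 of 1872. Their pooled signals lay between 54.2 and 131.5 (median 73.1), and 4 of the 11 were above 77.8, the median over all 1872 peaks, which reached 770.6. The other 168 candidates of the 8 genes had a median signal of 21.5 (range 15.9 to 51.7), and all other candidates one of 20.5. By position, 108 of the 179 candidates were intronic, 47 at promoters of any gene, 9 in coding sequence, 5 in 3′ UTRs, 4 in 5′ UTRs, 1 in a non-coding exon and 5 between genes. The shares of these classes over all candidates are not given here. Long stretches of these genes held no candidate. The longest, 25.4 kb at the 5′ end of *Eip75B*, spans the starts of RB and RE, and others measured 16.6 kb in *EcR*, 16.5 kb in *Hr38* and 14.9 kb in *Eip78C*.

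Base composition varied widely among the 11 peaks. The GC content of the 101 bp centred on the summit ran from 25.7% at the RC start of *Eip75B* to 59.4% at chrX:1952905-1953300 in *Hr4*, with a median of 36.6%. The median was 31.7% over all peaks, 41.1% at the other candidates of the 8 genes and 40.6% at all other candidates. Windows of the same size 300 bp to each side of the 11 summits had a median of 48.5%. Any of the 10 leading A/T words of the series, such as AAAATAT or its reverse complement, was in 6 of the 11 windows, against 61.5% of all peaks, 36.6% of all other candidates and 35.7% (60) of the 168 other candidates of these genes. The words were picked for their excess at these same peaks, the 11 included, so the shares at peaks are raised by that choice. The RC start of *Eip75B* held 6 of the 10 words, the peak upstream of *Hr4* held 4, and of the 3 strongest *Hr4* peaks only that at pooled rank 301 held any, with 1. Base composition thus ranged almost as widely within *Hr4*, from 28.7% to 59.4%, as over all 11 peaks.

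**Figure D4:**
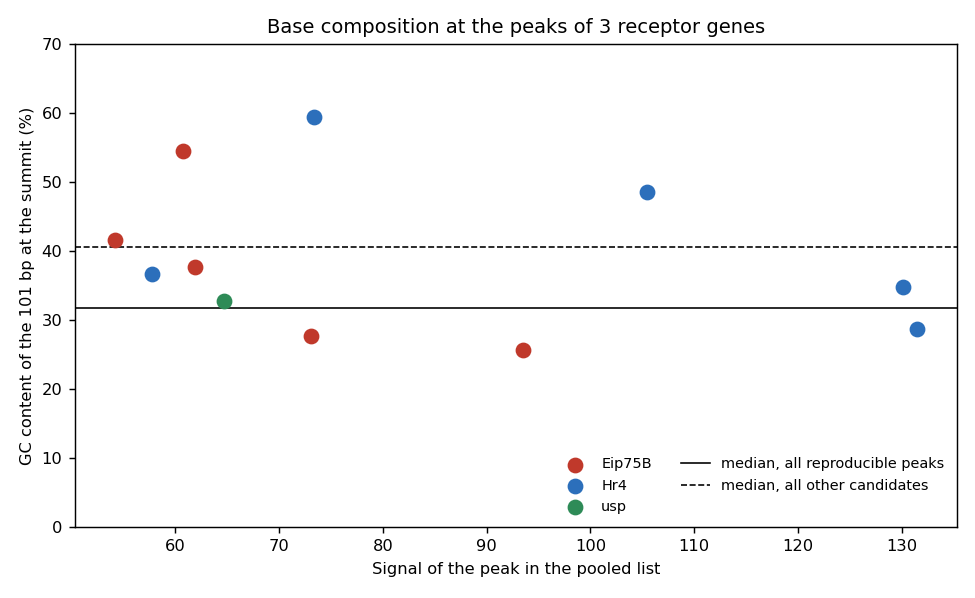
GC content (%) of the 101 bp at the summit against the pooled signal of each of the 11 peaks, coloured by gene, with the medians of all reproducible peaks (solid line, 31.7%) and of all other candidates (dashed line, 40.6%). Values run from 25.7% to 59.4%, and 4 peaks are above the dashed line, 2 in *Eip75B* and 2 in *Hr4*.

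Short motifs were searched on both strands of the same windows. AGGTCA, the hexamer that nuclear receptors recognise, was in 0 of the 11, against 1.82% of all peaks and 2.43% of all other candidates, and AAGGTCA, the core of the FTZ-F1 site, was in 0, against 0.855% and 0.822%. TATAAA was in 4 windows (*usp*, 2 of *Eip75B* and the strongest of *Hr4*), against 24.1% of all peaks and 13.3% of other candidates. CGATA was in 2 (13.4% and 12.6%), GAGAG in 1, at the RC start of *Eip75B* (9.99% and 11.5%), and CAGCTG in 1, in *Hr4* (2.83% and 4.48%). Neither TATCGATA, the DRE motif, nor the promoter word GGTCACA was in any of the 11, against 1.23% and 0.908% of all peaks, and the Zelda word CAGGTAG was in 0, against 0.588%. A match or its absence describes these letters in these windows only.

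The longest word that any pair of the 11 windows shared was CAGATGGCGCCA, of 12 bases. It stood in the *Eip75B* peak nearest transcript RG (chr3L:18019622-18020017) and, on the opposite strand, in the *Hr4* peak at chrX:1952905-1953300. These are the 2 windows with the highest GC content of the 11, at 54.5% and 59.4%, and neither holds any of the 10 A/T words. The word was in 5 of the 1872 peaks (0.267%), these 2 included, and in 6 of the 26878 other candidates (0.0223%). It was found by comparing the windows after their letters were seen, and no test was made.

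Other genes of the pathway were read from 4 lists. Of 13 other nuclear receptor genes, 3 had a peak at a TSS and 7 an assigned peak. Those with a TSS peak were *Hr96* (signal 98.9), *ERR*, the oestrogen-related receptor gene (71.7), and *Hr78* (58.7, at rank 538 in replicate 2 and 3949 in replicate 4). *Hr3*, whose product represses early genes and induces *ftz-f1*, had 3 assigned peaks, the best of signal 134.9, and none at a TSS. Of 15 genes of ecdysteroid synthesis and transport, 1 had a TSS peak: *E23*, an ABC transporter gene, with 4 assigned peaks and a best signal of 172.9 at ranks 164 in replicate 2 and 158 in replicate 4. *sad*, a Halloween gene of hormone synthesis, and *woc* each had 1 peak away from a TSS (68.4 and 74.0).

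Of 9 coregulator genes, 2 had a TSS peak and 4 an assigned peak. *tai*, which encodes the EcR coactivator Taiman, had a TSS peak of signal 98.6, and *TP53INP*, listed under its older name *DOR*, one of 69.2 at rank 1272 in replicate 2 and 1016 in replicate 4. *Smr*, which encodes a corepressor of EcR, had no TSS peak but 3 peaks in its body or flanks, with a best signal of 130.6. Of 22 ecdysone-induced genes, 2 had a TSS peak, *Ldh* (131.0) and *Eip63F-1* (68.3), and 8 an assigned peak. The early transcription factor genes *br* and *Eip74EF* had 2 and 1 peaks away from their starts, the best of signal 79.4 and 62.5. Set beside the 10.1% and 27.8% of all coding genes, the 4 lists ran from 6.67% (synthesis and transport) to 23.1% (other receptors) at a TSS, and, with body and flanks, from 3 of 15 genes (synthesis and transport) to 53.8% (other receptors). The receptor genes described above stood at 25.0% and 37.5%.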

How the data were processed

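Chromatin immunoprecipitation was done on the 2 libraries of 1 group described above. The authors deposited peak lists with a signal (enrichment) value for each region, and per their read-me files each replicate list was made from that replicate's alignments with a control alignment, the pooled list from both, and the reproducible list by IDR over these lists. The IDR threshold, the aligner and the caller were not given in the sources used here. There are 28750 regions in the pooled list, 30000 in each replicate list and 1872 in the reproducible list, which are the strongest 1872 of the pooled list by signal. The lists hold no read counts, so depth and counting error are unknown.

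Summits were placed on Ensembl release 115 genes of the same assembly as dm6, with transposable elements left out. A region was assigned by its summit to every gene whose body, 5 kb flank or 500 bp TSS window held it, so regions can count for several genes. Pooled and replicate regions were matched by the pooled summit, so the same replicate region can match more than 1 pooled region. For each of the 8 genes every peak and its strongest other candidate are described. Other genes named are those that host such a region or start within 500 bp of it, and up to 4 of each pathway list by TSS peak. Further candidates, CR46447, CR45921, *Hr3*, *sad*, *woc*, *Smr*, *br* and *Eip74EF* were named after their values were seen. The 8 genes, the 4 gene lists (67 genes with the 8, of which 7 were matched under newer symbols), the windows and the motifs were chosen with earlier results of these data known. GC content and words were read in 101 bp windows, and sequences come from the RefSeq copy of the same assembly. The steps were tested on simulated data. Python 3.11.15, pandas 2.3.3, numpy 2.4.6 and scipy 1.17.1 were used, and matplotlib 3.10.9 for plots. Alternatives were other windows and flanks, the stronger 936 peaks, each replicate alone, overlap or nearest-TSS assignment, and other word settings. The dm3 lists were not analysed here.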

Additional observations from a re-analysis of the deposited data

How the results depend on the processing

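Of 124 values recomputed under an alternative, 106 stayed within 1.5 times the reported value or equal to it, and 18 moved. These values are counts and shares with no direction to reverse, and the 106 include counts that stayed at 0. With the stronger 936 peaks alone, the 8 genes had 4 assigned peaks in place of 11 (3 at *Hr4*, 1 at *Eip75B*, 0 at *usp*), 1 gene with a peak at a TSS, 0.00979 peaks per kb of body in place of 0.0245, and 2.23% of candidates reproducible in place of 6.15%. When each region was given only to the gene with the nearest TSS, 7 peaks and 95 candidates were left, in place of 11 and 179, and *Hr4* had 1 peak in place of 5, since CR46447 and CG3587 start nearer to the others; fewer regions are assigned by construction. A 10 kb flank gave *usp* 2 peaks and *Eip78C* 1. TSS windows of 250 bp and 1 kb, no flank and assignment by overlap moved none of the reported counts by over 1.5 times. Assigned counts could not move with the TSS window, which always lies inside the gene body and its 5 kb flanks.

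With the 1872 strongest regions of 1 library in place of the reproducible peaks, the range was 8 to 11 assigned peaks, 161 to 190 candidates, 1 to 2 genes with a peak at a TSS, 2 to 5 genes with any, 0.0196 to 0.0245 peaks per kb and 4.97% to 5.79% of candidates. Shares over all coding genes for these single-library lists are not given here. Without replicate 4, *usp* had 0 in place of 1 and *Eip75B* and *Hr4* had 4 each. Without replicate 2, *EcR* and *ftz-f1* had 1 each in place of 0, *Eip75B* had 3 and *Hr4* 5. The cause was not tested. Any of the leading words was in 9 of the 11 windows with words of 6 bases and in 8 with 100 bp on each side of the summit, in place of 6. Shorter words and wider windows match more often in any sequence, and the shares over all peaks at these settings were not computed. No paired analysis was possible because the study has a single group. With 2 libraries of unknown depth, a gene without a reproducible peak is not shown to be free of the protein. Nor do the candidates of such a gene show binding, since some of them can be background.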
